A study of Mus musculus with 24 samples.

Results

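Adh1, Cyp2e1, Cat and Aldh1a1 encode enzymes that oxidise ethanol or the acetaldehyde made from it. They were chosen by name, as the rows of an expression table that carry these 4 gene symbols, and all 4 were found among its 2372 genes. The table gives whole-liver mRNA from 24 alcohol-fed mice, 12 females and 12 males, in a study of KDM5 demethylases and sex in alcohol-associated liver disease. Every mouse had 3 weeks of feeding on the Lieber-DeCarli liquid diet with alcohol, and every mouse had adeno-associated virus (AAV) vectors from 2 injections. The control group received AAV-shControl in both injections. The Kdm5 group received AAV-shKdm5b and AAV-shKdm5c in the first and AAV-shControl in the second. The AhR group received AAV-shControl in the first and AAV-shAhR in the second, and the group with both received AAV-shKdm5b and AAV-shKdm5c, then AAV-shAhR. Each of the 4 vector groups held 3 females and 3 males. An shRNA is a short hairpin RNA made to lower the mRNA of its target: the histone demethylases KDM5B and KDM5C, or the aryl hydrocarbon receptor (AhR), a ligand-activated transcription factor. The sources used here name neither the promoter that drives the hairpins nor the strain or age of the mice, and liver without alcohol feeding was not analysed here.

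Ethanol is cleared mainly in hepatocytes. Cytosolic alcohol dehydrogenase, of which ADH1 is the main hepatic form, oxidises it to acetaldehyde and makes NADH. The microsomal cytochrome P450 CYP2E1 does the same with NADPH and oxygen, is known for rising with chronic alcohol intake by stabilisation of its protein, and releases reactive oxygen species. Catalase, the product of Cat, is the peroxisomal enzyme that breaks down hydrogen peroxide and can use it to oxidise ethanol. ALDH1A1 is a cytosolic aldehyde dehydrogenase that oxidises retinal to retinoic acid and also takes acetaldehyde, whose main oxidation is by the mitochondrial ALDH2.

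In the RefSeq annotation of mouse build GRCm38.p6, Adh1 (gene ID 11522) lies on chromosome 3 at 138277585 to 138290698, and Cyp2e1 (13106) on chromosome 7 at 140763819 to 140774990. Cat (12359) lies on chromosome 2 at 103453904 to 103485153. Aldh1a1 (11668) lies on chromosome 19 at 20492583 to 20643463, a span that overlaps the long non-coding RNA genes E030003E18Rik and C730002L08Rik and the pseudogene Gm6684. The sources used here do not say if the authors' counting used the strand, so reads from overlapping genes may not be told apart. The 150 bases directly upstream of each annotated start are shown here because the 4 genes differ in promoter type, and a study with an AhR hairpin raises the question of AhR core letters near the start. RefSeq sequences are given 5′ to 3′ on the gene's strand, with capitals marking matches to the motifs searched.
Adh1, chr3:138277435-138277584, plus strand: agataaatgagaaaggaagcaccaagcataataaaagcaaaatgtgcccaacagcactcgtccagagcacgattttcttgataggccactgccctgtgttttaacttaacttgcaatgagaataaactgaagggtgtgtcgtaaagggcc
Cyp2e1, chr7:140763669-140763818, plus strand: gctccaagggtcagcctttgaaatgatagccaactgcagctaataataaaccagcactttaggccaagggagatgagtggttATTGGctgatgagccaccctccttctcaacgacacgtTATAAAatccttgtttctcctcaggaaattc
Cat, chr2:103485154-103485303, minus strand: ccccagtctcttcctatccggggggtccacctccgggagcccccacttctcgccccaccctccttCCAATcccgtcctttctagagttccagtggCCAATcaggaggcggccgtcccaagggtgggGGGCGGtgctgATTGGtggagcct
Aldh1a1 first start, chr19:20492433-20492582, plus strand: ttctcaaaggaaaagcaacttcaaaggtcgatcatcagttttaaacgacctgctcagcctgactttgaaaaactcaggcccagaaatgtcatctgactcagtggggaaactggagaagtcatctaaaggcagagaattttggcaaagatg
Aldh1a1 second start, chr19:20601818-20601967, plus strand: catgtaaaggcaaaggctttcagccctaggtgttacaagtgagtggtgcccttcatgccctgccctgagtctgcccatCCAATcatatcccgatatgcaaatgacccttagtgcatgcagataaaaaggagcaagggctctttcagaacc

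The Cat window held 66% G and C and 7 CpG dinucleotides, against a median of 54% and 4 over all promoter windows. The windows of Adh1 (42.7%), Cyp2e1 (45.3%) and Aldh1a1 (42.7% and 49.3% at its 2 starts) were below that median. On both strands, 5 motifs were searched: the AhR response core GCGTG, the TATA box TATAAA, the CCAAT box, the Sp1 box GGGCGG and the STAT5 element TTCNNNGAA. Of 32851 promoter windows of this length, 20.5% held the AhR core, 7.57% the TATA box, 24.5% the CCAAT box, 28.6% the Sp1 box and 4.09% the STAT5 element. Cyp2e1 held the TATA box 31 to 26 bases before its start and a CCAAT box on the opposite strand at 68 to 64. Cat held CCAAT boxes at 85 to 81 and 55 to 51, on the opposite strand at 13 to 9, and the Sp1 box at 24 to 19. The second start of Aldh1a1 held a CCAAT box at 72 to 68. No motif overlapped another, and the letters of the AhR core and the STAT5 element were in none of the 5 windows, which says only that these letters are not there.

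All 4 mRNAs were abundant in both sexes. Levels are in FPKM, fragments per kilobase of transcript scaled to the mapped total, a scale per length on which genes can be set side by side. By mean FPKM, Cyp2e1 ranked 7 among the 2372 genes in females and 10 in males, and Adh1 ranked 31 and 57. Cat ranked 44 and 46, and Aldh1a1 137 and 75. The table does not hold every liver gene, with 9 of 14 listed hepatocyte genes in it. Ranks and shares of all genes are therefore those of this table alone. The order was Cyp2e1, Adh1, Cat, Aldh1a1 in females and Cyp2e1, Cat, Adh1, Aldh1a1 in males.

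The libraries of the table summed to between 281871 and 326460 FPKM in females and between 380206 and 429780 in males. The 19 major urinary protein (Mup) genes, secreted by male liver in large amounts, took 2.26 to 5.93% of that sum in females and 14.0 to 25.7% in males. The 4 enzymes took 2.23 to 2.88% in females and 2.11 to 2.91% in males. The table held 9 of 14 listed hepatocyte genes, none at 0, with summed levels of 23870 to 31016 FPKM in females and 26762 to 30216 in males. Of the hairpin targets, Kdm5c, an X-linked gene, lay between 4.64 and 13.1 FPKM. With the Kdm5 vectors it differed from control by -0.09 (log2) in females (adjusted p = 0.66, limma) and -0.38 in males (adjusted p = 0.139). The other targets, Kdm5b and Ahr, are left out.

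Females had more Adh1 mRNA than males and less Cyp2e1, Cat and Aldh1a1 mRNA, and these were the differences that passed the test for the 4 enzymes. Differences were tested with limma on log2(FPKM + 0.5) over the 2299 genes that reached 1 FPKM in 3 or more libraries, and called at an adjusted p under 0.05; ± beside a log2 difference is its standard error. All 4 enzymes passed the filter on low values. Over all vectors, 62.3% of the genes tested differed between the sexes, 42.9% higher and 19.4% lower in females, so that a call by itself is common here. With control vectors alone the share was 42.5%, with 30.8% higher and 11.6% lower in females. Without that test, 13.4% of genes had 12 female values that did not overlap the 12 male values, and Cyp2e1, Cat and Aldh1a1 were among them. Overlap was read on the deposited scale alone.

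Adh1 had the widest spread of the 4, with a coefficient of variation of 25.6% over the 12 females and 24.6% over the 12 males. In control females it was at 2341, 1335 and 2297 FPKM (1991 ± 569, SD, n = 3), and in control males at 1315, 1144 and 714 (1058 ± 310). The second control female sat close to the highest control male, and the other two were well above. Females with the Kdm5 vectors had 1293, 1160 and 1795 FPKM, those with the AhR vector 1901, 1679 and 1294, and those with both 1316, 1417 and 1296. Males with the Kdm5 vectors had 705, 916 and 913 FPKM, those with the AhR vector 1461, 1352 and 1391, and those with both 1327, 992 and 908. Over all groups the females ran from 1160 to 2341 FPKM (median 1376) and the males from 705 to 1461 (median 1068), so the sexes overlapped. Of the 12 females 5 were above every male, and 7 of the 12 males were below every female. The mean was 1.46-fold higher in females on the log2(FPKM + 0.5) scale (0.54 ± 0.12, adjusted p = 0.000316). With control vectors it was 1.88-fold higher (0.91 ± 0.23, adjusted p = 0.00355). By the ratio of group means the female excess was 1.88-fold with control, 1.68-fold with Kdm5, 1.16-fold with AhR and 1.25-fold with both vectors, and the sexes overlapped with AhR and with both.

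On the deposited scale, Cyp2e1 was lower in every female than in any male. Control females had 4939, 6081 and 3964 FPKM (4995 ± 1060) and control males 7245, 7570 and 6518 (7111 ± 539). Females with the Kdm5 vectors had 4092, 5678 and 4196 FPKM, those with the AhR vector 4291, 5529 and 5624, and those with both 5343, 5300 and 4602. Males with the Kdm5 vectors had 6683, 7258 and 6642 FPKM, those with the AhR vector 6646, 6401 and 6833, and those with both 7105, 6167 and 6358. The margin was narrow, since the highest female, a control at 6081 FPKM, was just under the lowest male at 6167. Females had a median of 5119 and a coefficient of variation of 14.5%, and males a median of 6665 and 6.27%. The level was 1.38-fold lower in females over all vectors (-0.46 ± 0.07, adjusted p = 9.39e-06) and 1.44-fold lower with control vectors (-0.53 ± 0.14, adjusted p = 0.00558). With the 2 control groups fitted alone, limma gave the same -0.53 with an adjusted p of 0.0526, which no longer passed.

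Cat was steady, with a coefficient of variation of 4.87% over the females and 7.54% over the males. Control females had 1053, 961 and 1095 FPKM (1036 ± 68.3) and control males 1562, 1442 and 1270 (1425 ± 147). Females with the Kdm5 vectors had 971, 1102 and 1131 FPKM, those with the AhR vector 1059, 1108 and 1038, and those with both 1048, 1072 and 1037. Males with the Kdm5 vectors had 1426, 1616 and 1461 FPKM, those with the AhR vector 1420, 1480 and 1267, and those with both 1436, 1346 and 1320. The highest female was at 1131 and the lowest male at 1267, with medians of 1056 and 1431. Cat was 1.34-fold lower in females (-0.43 ± 0.04, adjusted p = 4.88e-08), and 1.37-fold lower with control vectors (-0.46 ± 0.09, adjusted p = 0.000332).

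Aldh1a1 had the largest fold difference of the 4 between the sexes. Control females had 390, 342 and 375 FPKM (369 ± 24.4) and control males 921, 720 and 563 (735 ± 180). Females with the Kdm5 vectors had 364, 298 and 508 FPKM, those with the AhR vector 335, 400 and 461, and those with both 369, 306 and 375. Males with the Kdm5 vectors had 744, 717 and 858 FPKM, those with the AhR vector 773, 764 and 608, and those with both 852, 656 and 683. No female reached the lowest male, at 563 FPKM, and the medians were 372 and 732. The level was 1.96-fold lower in females (-0.97 ± 0.09, adjusted p = 1.47e-08), and 1.95-fold lower with control vectors (-0.97 ± 0.18, adjusted p = 0.000305). Among all genes tested the difference stood at percentile 4.35, counted from the most female-lowered gene, while Adh1 stood at 76.9.

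**Figure D1:**
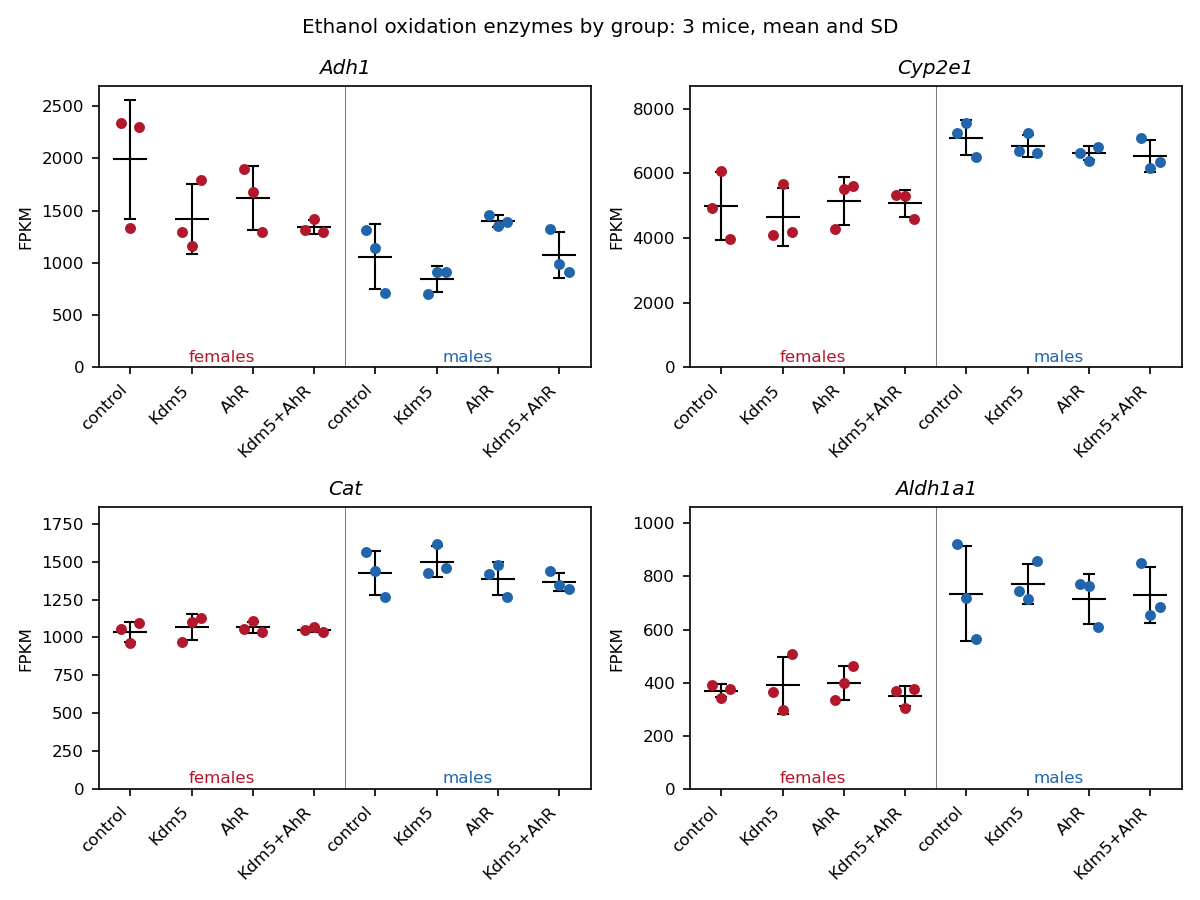
Level of each enzyme in FPKM (vertical axis from 0) in the 8 groups, with 1 point per mouse, the group mean as a bar and the SD as whiskers. For Cyp2e1, Cat and Aldh1a1 the 12 male points all lie above the 12 female points, and for Adh1 the sexes overlap. Males with the AhR vector (1352 to 1461), the highest control male (1315) and the highest male with both vectors (1327) lie above the lowest female (1160).

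How libraries are scaled changed the size of these differences but not their direction or call. Overlap between the sexes was not read under the other scalings. Over all genes the median female minus male difference was 0.08 (log2) over all vectors and 0.15 with control vectors. Scaling by median-of-ratios size factors moved those medians to -0.05 and -0.0029, and the calls over all vectors to 858 higher and 873 lower, from 986 and 447. An equal sum without the Mup genes moved the medians to 0.22 and 0.24, and the calls to 1412 higher and 265 lower. With control vectors the calls were 709 higher and 267 lower as deposited, 490 and 492 with size factors and 921 and 211 without the Mup genes. The Adh1 difference over all vectors was 0.42 with size factors and 0.69 without the Mup genes, that of Cyp2e1 -0.59 and -0.32, of Cat -0.55 and -0.28, and of Aldh1a1 -1.10 and -0.83. All 8 values passed the threshold. Each of the 4 enzymes also passed in every fit that left out 1 library, in both sex comparisons.

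Markers of non-parenchymal cells moved with sex as well. The counts below are over all vectors, where 42.9% of all genes tested were called higher and 19.4% lower in females. All 9 measured macrophage and Kupffer cell genes, of 14 listed, passed as higher in females, with summed levels of 421 to 590 FPKM against 218 to 401 in males. The 7 measured endothelial genes of 11 did so too (105 to 153 against 68.9 to 96.9), as did the 4 stellate and fibroblast genes of 11 (111 to 174 against 73.8 to 107). Scaling by size factors left 3 of the last 4, without Col3a1 (0.30, adjusted p = 0.072, limma). The lymphocyte and neutrophil list had 1 gene of 12 in the table, Ptprc, at 1.81 to 4.13 FPKM in females and 0.95 to 2.29 in males. Of the 3 measured cholangiocyte genes of 8, 1, Sox9, was lower in females (sums 128 to 207 against 150 to 208). None of these genes was at 0 in all libraries. Of 14 measured pericentral hepatocyte genes 4 were higher and 6 lower in females, with sums of 2081 to 2820 FPKM against 2066 to 2504. Of 14 periportal genes 4 were higher and 5 lower, with sums of 9930 to 13588 against 13762 to 21622. Of the 9 hepatocyte genes 4 were higher and 3 lower, and of 12 measured circadian clock genes 5 were higher and 6 lower. With size factors the counts were 2 higher and 5 lower for the hepatocyte and for the periportal list, 4 and 7 for the pericentral, 4 and 6 for the clock, and 3 of 3 cholangiocyte genes were lower. Their part in the sex differences of the 4 enzymes was not tested. In whole liver, fewer cells of a type and less RNA per cell cannot be told apart, and neither can sex and any unlabelled batch that ran with it.

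The balance between the enzymes can be read within each library, where scaling cancels. Adh1 differed between the sexes in the opposite direction to the other enzymes, so differences in its ratios follow from those already given. Their p-values are no separate support. The permutations shuffled libraries over all vector groups, and how often other gene pairs separate the sexes was not counted. The ratio of Adh1 to Aldh1a1 FPKM ran from 2.81 to 6.13 in females (median 3.90) and from 0.947 to 2.29 in males (median 1.47), and no female overlapped a male. Its mean was 2.86-fold higher in females (log2 2.06 ± 0.36 against 0.54 ± 0.35, SD, n = 12 each; permutation test, 2-sided, p = 2e-05, the smallest it can give, adjusted over 6 ratios p = 6e-05). The ratio of Adh1 to Cyp2e1 had a median of 0.293 in females and 0.156 in males, a 2.01-fold difference (permutation test, adjusted p = 8e-05). That of Adh1 to Cat had medians of 1.36 and 0.765, a 1.96-fold difference (permutation test, adjusted p = 6e-05). Cat mRNA thus exceeded Adh1 mRNA in the median male and fell short of it in the median female. Aldh1a1 was lower in females also relative to Cyp2e1 (medians 0.0785 and 0.109, 1.43-fold, permutation test, adjusted p = 0.00031) and to Cat (0.358 and 0.517, 1.46-fold, permutation test, adjusted p = 9e-05). The ratio of Cyp2e1 to Cat did not differ beyond its spread, with medians of 4.82 and 4.68 and a log2 difference of -0.04 (2.22 ± 0.23 against 2.26 ± 0.10, SD, permutation test, p = 0.63). Its range was wider in females (3.62 to 6.33) than in males (4.32 to 5.39). Leaving out each library in turn moved the difference of Adh1 to Aldh1a1 between 1.46 and 1.58 and changed the call of no ratio.

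**Figure D2:**
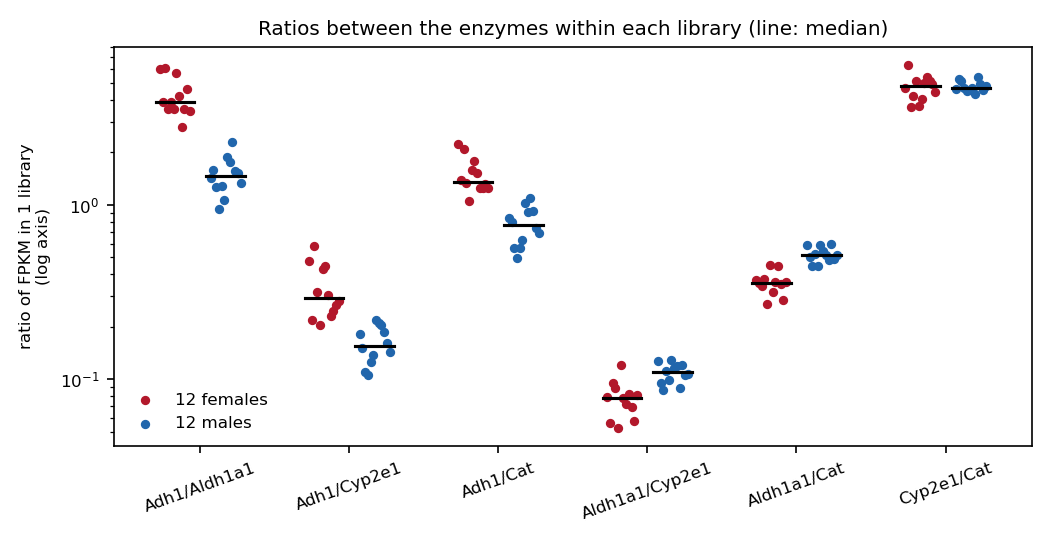
Ratio of FPKM between 2 enzymes in the same library (log axis) for the 6 pairs, with 12 females in red, 12 males in blue and a line at each median. The ratio of Adh1 to Aldh1a1 separates the sexes (medians 3.90 and 1.47), while the medians of Cyp2e1 to Cat are 4.82 and 4.68.

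Within a sex, the ties between the levels of the 4 enzymes depended on whether the vector groups were pooled. Of the 12 correlations of log2 levels (6 pairs in each sex, 12 libraries each) none passed after adjustment. Aldh1a1 with Cat in males came closest, with Pearson's r = 0.743 (permutation p = 0.00574, adjusted p = 0.0689) and Spearman's rho = 0.678 (permutation p = 0.0182, adjusted p = 0.218), and r = 0.567 without the 2 libraries farthest from the median of Aldh1a1. Adh1 and Cyp2e1 had r = -0.508 in females (permutation p = 0.0922, adjusted p = 0.369; rho = -0.413, permutation p = 0.184, adjusted p = 0.633; r = -0.453 without the 2 farthest). In males they had r = 0.26 (permutation p = 0.41, adjusted p = 0.593; rho = 0.21, permutation p = 0.513, adjusted p = 0.633; r = 0.177 without the 2 farthest). With the mean of each vector group removed, a description with no test over groups of 3, r was higher for Adh1 in males, at 0.797 with Aldh1a1, 0.78 with Cyp2e1 and 0.764 with Cat, where the pooled values were 0.377, 0.26 and 0.177. Aldh1a1 with Cat in males was at 0.76, Cyp2e1 with Cat at 0.527 and Aldh1a1 with Cyp2e1 at 0.413. In females Adh1 was at -0.722 with Cyp2e1 and 0.652 with Cat after that step, and the other 4 pairs lay between -0.253 and 0.303.

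The vectors changed none of the 4 enzymes past the threshold, in either sex. These 6 comparisons share the 3 control mice of each sex. The share of all genes called was 6.87% in females and 1.22% in males for the Kdm5 vectors, 0.217% and 1.09% with AAV-shAhR, and 11.6% and 2.35% with all of them. Cat moved by -0.05 to 0.08 (log2, standard error 0.09), Cyp2e1 by -0.12 to 0.05 (standard error 0.14) and Aldh1a1 by -0.08 to 0.10 (standard error 0.18). With the Kdm5 vectors in females the 95% interval was -0.14 to 0.22 for Cat, -0.39 to 0.20 for Cyp2e1 and -0.33 to 0.43 for Aldh1a1. Cat had the narrowest of these intervals. In 1 of the 24 pairs of a gene with a vector group the 3 treated mice did not overlap the 3 controls, and that was Adh1 in males with the AhR vector. Among all genes the groups did not overlap for 23.8% (females) and 14.8% (males) with the Kdm5 vectors, 14.4% and 16.6% with the AhR vector, and 32.8% and 20.7% with both.

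Adh1 had the largest differences. In males with the AhR vector all 3 values (1352 to 1461 FPKM) were above all 3 controls (714 to 1315), a difference of 0.45 ± 0.23 with an interval of -0.03 to 0.93 (limma, adjusted p = 0.392). Without the third control male, at 714 FPKM, it was 0.19. In females with that vector the difference was -0.27 ± 0.23 (adjusted p = 0.705), and between -0.53 and -0.11 without 1 library. The difference between the sexes in this effect was -0.72 ± 0.33 (limma, adjusted p = 0.33; -0.98 to -0.46 without 1 library), where 0.565% of genes were called. In females, Adh1 differed by -0.47 ± 0.23 with the Kdm5 vectors (interval -0.95 to 0.0087, limma, adjusted p = 0.222) and by -0.52 ± 0.23 with both (limma, adjusted p = 0.134). Both values moved with each control female. Without the second, whose 1335 FPKM lay among the treated mice, they were -0.74 (limma, adjusted p = 0.0379) and -0.79 (adjusted p = 0.0338), both past the threshold. Without the first they were -0.33 (limma, adjusted p = 0.549) and -0.38 (adjusted p = 0.387), and without the third -0.35 and -0.40. With library weights they were -0.68 (adjusted p = 0.0318) and -0.67 (adjusted p = 0.0153). In males Adh1 differed by -0.29 ± 0.23 with the Kdm5 vectors (adjusted p = 0.804) and by 0.05 ± 0.23 with both (adjusted p = 0.956).

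The effect of the Kdm5 vectors did not differ between the sexes past the threshold for any of the 4, with values of -0.04 to -0.05 for Cat, Cyp2e1 and Aldh1a1 and -0.18 ± 0.33 for Adh1 (limma, adjusted p = 0.81), against 1.74% of all genes called. Nor did the 4 pass for the departure of the combined vectors from the sum of the separate effects, where 0.609% of genes were called in females and 1.61% in males. For Adh1 that departure was 0.21 ± 0.33 in females (limma, adjusted p = 0.868) and -0.11 ± 0.33 in males (adjusted p = 0.999), and for Aldh1a1 it was -0.23 ± 0.26 and -0.07 ± 0.26.

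**Figure D3:**
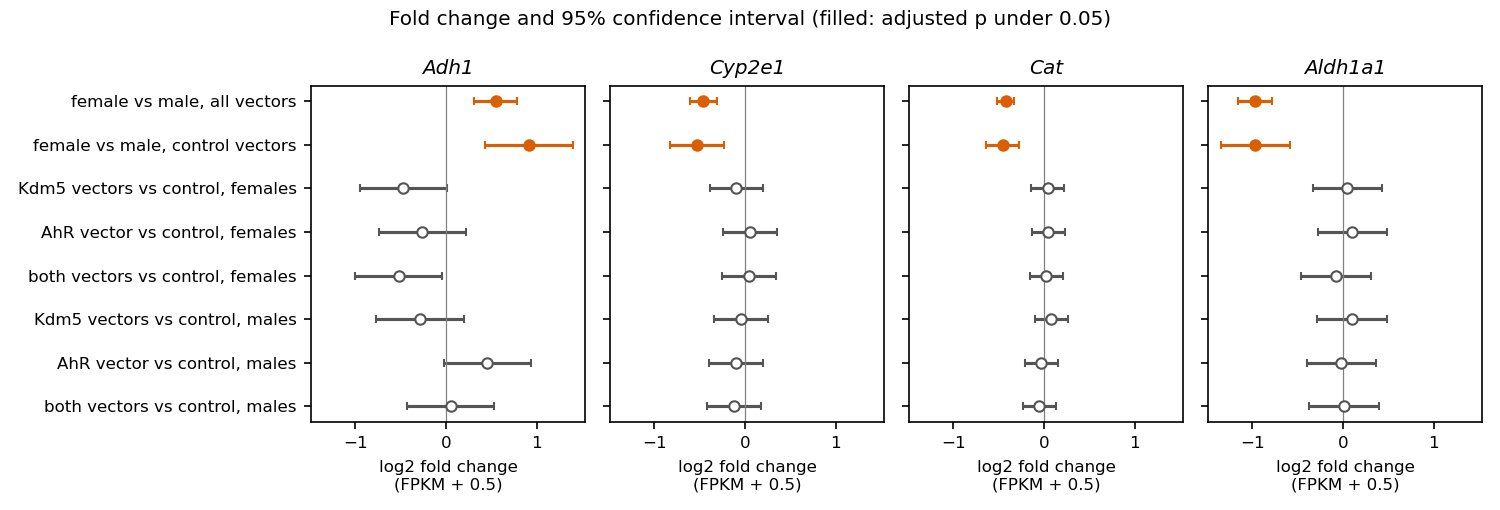
Log2 fold change on the FPKM + 0.5 scale with its 95% confidence interval for each enzyme (columns) in 8 comparisons (rows); filled orange points have an adjusted p under 0.05. The 8 filled points are the 2 sex comparisons, and the vector comparisons of Adh1 reach from -0.52 to 0.45.

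The other genes of ethanol metabolism were read from lists around each enzyme, chosen with earlier results of these data known. The table held 5 of 8 listed alcohol dehydrogenases, 7 of 19 aldehyde dehydrogenases and 5 of 9 genes of microsomal ethanol oxidation. Those counts include Adh1, Aldh1a1 and Cyp2e1, and the listed genes absent from the table could not be read. Over all vectors, 42.9% of all genes tested were called higher and 19.4% lower in females. Among other alcohol dehydrogenases, 3 of 4 tested genes were lower in females over all vectors and none higher, opposite to Adh1 (median -0.32, against 0.08 over all genes). They were Adh4, whose enzyme also acts on retinol and larger alcohols (27.3 ± 7.40 FPKM in 12 females against 49.2 ± 10.9 in 12 males, -0.85, adjusted p = 2.19e-06, limma), Adh5, the glutathione-dependent formaldehyde dehydrogenase (-0.32), and Adhfe1, the hydroxyacid-oxoacid transhydrogenase (-0.33). Of other aldehyde dehydrogenases 4 of 6 were lower and none higher (median -0.25): Aldh7a1, of lysine breakdown (88.7 ± 6.43 FPKM in females against 133 ± 7.11 in males, -0.59, adjusted p = 1.78e-10, limma), Aldh1a7 (-0.86), the folate enzyme Aldh1l1 (-0.33) and Aldh9a1 (-0.17). Aldh1a7 is a close paralog of Aldh1a1, so that reads may be split between them. Aldh2 was not among these called genes, so the count does not describe the main oxidation of acetaldehyde. Of the other genes in the list of microsomal ethanol oxidation 3 of 4 were lower and none higher (median -0.24). They were the cytochrome P450 gene Cyp1a2, a classic AhR target (-0.46, adjusted p = 0.00111, limma), Cyb5r3 (-0.33) and Cyb5a (-0.15). Por, the reductase that feeds electrons to CYP2E1, was at -0.08 (adjusted p = 0.567). With control vectors alone these 3 lists had 0, 2 and 0 genes lower, namely Aldh7a1 and Aldh1a7, and none higher. Of all genes, 11.6% were lower and 30.8% higher in that comparison. The call of Aldh1a7 there (-0.78, adjusted p = 0.0176, limma) was lost with the compared groups fitted alone (adjusted p = 0.0683) and in 2 of 6 fits without 1 library, the first control male or the second control female.

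An equal sum without the Mup genes took the calls of Aldh9a1 (-0.02, adjusted p = 0.74, limma) and Cyb5a (-0.0069, adjusted p = 0.898), and made 1 aldehyde dehydrogenase higher in females, Aldh6a1 (0.15). Scaling by size factors gave 4 of 4, 6 of 6 and 3 of 4 genes lower in the 3 lists over all vectors, and 3, 5 and 1 lower with control vectors, where none was higher. Of the genes that activate acetate, Acss3 was higher (0.34, adjusted p = 0.000117) and Acss2 lower in females (-0.30, adjusted p = 0.000571).

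Around Cat, the list of peroxisomal oxidases and biogenesis had 4 of 15 genes higher and 6 lower in females (median -0.06). Of all genes, 42.9% were higher and 19.4% lower. Hao2, a hydroxyacid oxidase, was at 2.52 to 9.51 FPKM in females and listed at 0 in all 12 males. Phyh, of phytanic acid oxidation (-0.79, adjusted p = 4.17e-10, limma), the sterol carrier Scp2 (-0.60) and the glycolate oxidase Hao1 (-0.55) were lower. In hydrogen peroxide and oxidant defence 5 of 20 genes were higher and 7 lower (median -0.02). The microsomal glutathione transferase Mgst1 (2271 ± 160 FPKM in females against 3594 ± 271 in males, -0.66) and the peroxiredoxin Prdx5 (-0.41) were lower, and the extracellular superoxide dismutase Sod3 (0.67) and haem oxygenase Hmox1 (0.92) higher. The balance of both lists depended on the scaling. With size factors the peroxisomal list had 2 higher and 8 lower (median -0.19) and the defence list 3 and 11 (-0.15), and without the Mup genes they had 6 and 5 (0.08) and 11 and 4 (0.12).

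The NADH made by ADH and ALDH is carried into mitochondria by shuttles. Of 7 tested genes in the list for these shuttles 2 were higher and 2 lower in females. Higher were Gpd2, the mitochondrial glycerol phosphate dehydrogenase (0.72, adjusted p = 1.08e-06, limma), and Ldha (0.18, adjusted p = 0.0414). Ldha was listed with them but encodes a lactate dehydrogenase, which is not part of a shuttle. Lower were Gpd1, the cytosolic partner of Gpd2 (-0.21, adjusted p = 0.0113, limma), and Slc25a13 (-0.13, adjusted p = 0.0279). Ldha was lost in 16 of 24 fits without 1 library and at size factors (0.05), Slc25a13 in 6 of 24, and Gpd1 and Slc25a13 without the Mup genes (-0.07 and 0.02). In retinal and retinol metabolism, where ALDH1A1 acts, 3 of 9 other genes were higher and 4 lower (3 and 5 with size factors, 5 and 3 without the Mup genes). For this list and the shuttle list alike, the shares of all genes were 42.9% higher and 19.4% lower in females. Aox3, an aldehyde oxidase that can act on retinal, was 2.81-fold lower in females (29.6 ± 7.13 FPKM against 86.1 ± 29.0, adjusted p = 2.55e-09, limma). Rdh9, a retinol dehydrogenase (0.97, adjusted p = 5.68e-09), and Lrat, which esterifies retinol and is also a stellate cell marker (0.63, adjusted p = 5.31e-05), were higher.

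**Figure D4:**
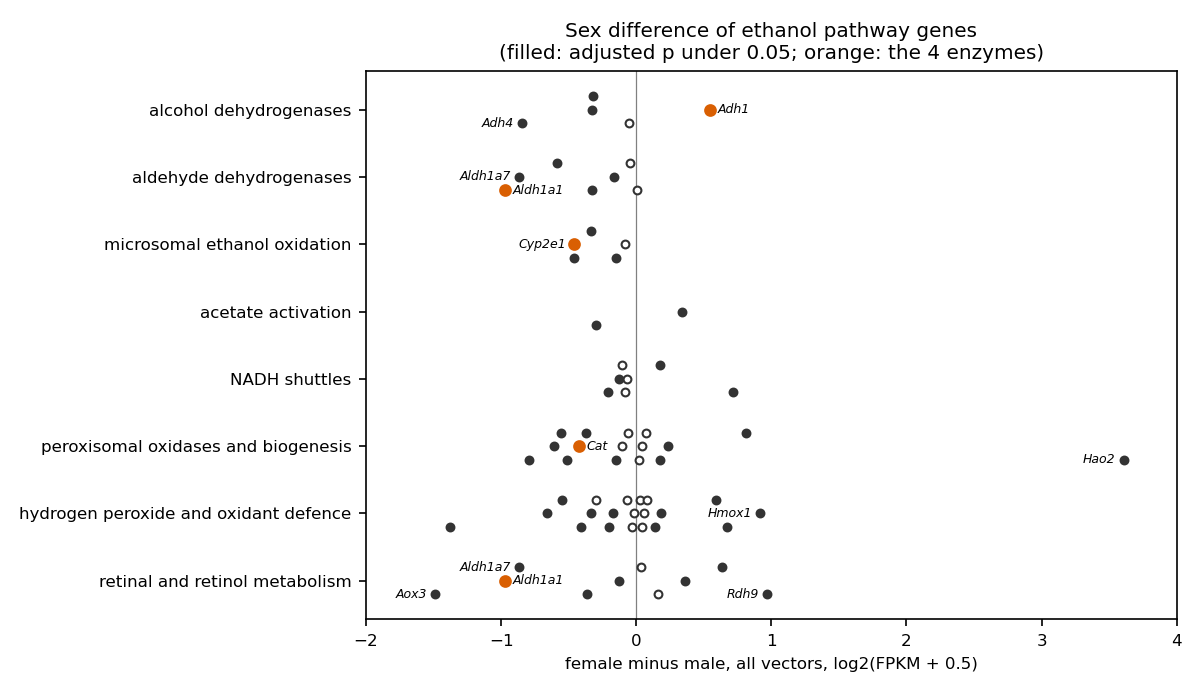
Female minus male difference over all vectors, on the log2(FPKM + 0.5) scale, for each tested gene of the 8 lists (rows; vertical offsets only separate points); filled points have an adjusted p under 0.05 and orange marks the 4 enzymes. Adh1 (0.54) lies opposite to the 3 filled alcohol dehydrogenases (Adh4 at -0.85), and Hao2 lies far right because its male libraries are listed at 0.

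With the vectors, few of these genes passed. With the Kdm5 vectors in females, 3 peroxisomal genes of 15 and 2 of the 7 genes of the shuttle list did, and none of the other 6 lists around the enzymes. With both vectors in females it was 2 peroxisomal genes of 15, 3 defence genes of 20 and 3 of the 7 genes of the shuttle list. The shuttle list counts include Ldha, which is not a shuttle gene, in both comparisons. Among all genes tested, 6.87% were called in the first of these comparisons and 11.6% in the second. Acox2, the oxidase of branched-chain acids, rose from 85.7 ± 5.39 to 117 ± 2.29 FPKM (n = 3 each, 0.45, adjusted p = 0.00826, limma), and Hsd17b4, of peroxisomal beta-oxidation, by 0.43 (adjusted p = 0.0142). Hacl1, of alpha-oxidation, fell by 0.61 (adjusted p = 0.0478), while Gpd1 rose from 167 ± 6.61 to 264 ± 65.3 FPKM (0.63, adjusted p = 0.0122) and Ldha by 0.50 (adjusted p = 0.044). With both vectors in females, the same shared controls gave Acox2 at 0.53 (adjusted p = 0.00215), Hsd17b4 at 0.44, Gpd1 at 0.80 (adjusted p = 0.00244), Got2 at 0.32 and Ldha at 0.48, all higher. Gsta3 (-0.76, adjusted p = 0.0118), Sod1 (-0.37, adjusted p = 0.0282) and Txn1 (-0.35, adjusted p = 0.0356) were lower. In males Cyp26b1, which clears retinoic acid, fell by 0.94 with the AhR vector (adjusted p = 0.0249, limma), and Acss3 by 0.57 with both (adjusted p = 0.0241). Of all genes, 1.09% and 2.35% were called in those male comparisons. Mean Cyp26b1 in males went from 2.16 FPKM with control to 0.913 with the AhR vector, levels close to the filter and the pseudocount. Female Cyp26b1 also went down with the AhR vector, from a mean of 2.69 to 1.21 FPKM. Those female groups did not overlap, as for 14.4% of all genes, but the difference did not pass. No gene of the 8 lists passed with the Kdm5 vectors in males or the AhR vector in females. Of all genes, 1.22% and 0.217% were called there. Of these 15 calls, 4 held in every fit without 1 library, those of Acox2 and Gpd1 in both female comparisons, and 1 held with the compared groups fitted alone, that of Gpd1 with both vectors. An equal sum without the Mup genes took 3 of them: Hacl1 with the Kdm5 vectors (-0.60, adjusted p = 0.0663, limma), and Sod1 (-0.27, adjusted p = 0.0675) and Txn1 (-0.25, adjusted p = 0.121) with both vectors in females.

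Some markers of liver cell types also passed in the same female comparisons, where 6.87% of all genes were called with the Kdm5 vectors and 11.6% with both. With the Kdm5 vectors 2 of 7 endothelial genes were higher, the hyaluronan receptor Lyve1 (0.75) and Gpr182 (0.62). Of 9 hepatocyte genes 2 were higher, among them the transcription factor Cebpa (0.56). Of 14 pericentral genes 1 was higher and 1 lower, and of 14 periportal genes 1 was lower. With both vectors 1 gene was higher in each of the endothelial (Gpr182, 0.50), stellate (the matrix proteoglycan Dcn, 0.39) and macrophage (the scavenger receptor Cd163, 0.68) lists and 2 in the hepatocyte list, while 1 pericentral and 2 periportal genes were lower. Of the 12 clock genes 4 were higher and 3 lower with both vectors in females, and none passed with the Kdm5 vectors. Summed endothelial levels were 105 to 124 FPKM in control females, 133 to 137 with the Kdm5 vectors and 137 to 153 with both, and summed stellate levels were 117 to 131, 137 to 156 and 152 to 174. The pericentral sum was 2390 to 2719 FPKM in control females, 2081 to 2251 with the Kdm5 vectors and 2085 to 2264 with both. None of these treated groups overlapped the controls in these 3 sums, although no stellate gene passed with the Kdm5 vectors. The sums of the other lists overlapped the controls, and 23.8% (Kdm5) and 32.8% (both) of single genes did not. A sum follows its most abundant genes. With the Kdm5 vectors 7 pericentral genes were above 0 and 7 below (median -0.0015), and with both 6 and 8 (-0.05). Of the stellate genes 1 was above 0 and 3 below with the Kdm5 vectors, and 3 and 1 with both. No marker of a cell type other than hepatocytes passed in any male vector comparison. The part of these markers in the differences of Adh1 and of the listed genes was not tested.

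Genes whose levels followed each enzyme were ranked by Pearson's r over the 24 libraries after the mean of each sex was removed, a description of libraries that share groups and scaling. Adh1 had the closest followers. The carboxylesterase Ces1f had r = 0.869 (0.858 in females, 0.903 in males), Hacl1 0.86 (0.821 and 0.93), Tmbim6 0.858, Cyp2c29 0.832 and the sorbitol dehydrogenase Sord 0.821. Opposed to Adh1 were Gfra1 (-0.837), the tyrosine-breakdown enzyme Hpd (-0.823, with -0.856 in females and -0.919 in males) and the urea-cycle enzyme Asl (-0.797). In the second control female, where Adh1 was low, Hpd was at 2015 FPKM against 1352 and 1031 in the other two controls. Within each sex, mice with more Adh1 tended to have less Hpd, which did not hold for every pair of mice. The means of the vector groups were not removed.

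For Aldh1a1 the closest was its paralog Aldh1a7 (r = 0.77), then Car3 (0.701), Gm3776 (0.674), Aldh7a1 (0.657) and Sdha (0.619), with Irak3 (-0.586), Cnst (-0.568) and Cfp (-0.559) opposed. For Cyp2e1 they were the fatty acid transporter Slc27a2 (0.684), Dpyd (0.664, with 0.806 in females and 0.0435 in males), the pericentral glutamate transporter Slc1a2 (0.657), Gpcpd1 (0.645) and Gpld1 (0.635), with Bet1 (-0.721), Gstp1 (-0.622) and Ifitm2 (-0.613) opposed. For Cat they were Acss2 (0.725), the glutathione transferases Gstm1 (0.717), Gstm2 (0.686) and Gstm6 (0.667), and Hmgcs1 (0.65), with Hgd (-0.684), Igfbp2 (-0.671) and Ugt2b38 (-0.645) opposed. The Gstm genes are near copies of each other, so their values are not separate. For Adh1 the 5 closest genes had r from 0.801 to 0.93 within each sex, a narrower span than for the other 3 enzymes, where Dpyd and Cyp2e1 in males had the lowest, 0.0435. All these genes were picked for their r over the same libraries, so high values within each sex are no separate support.

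**Figure D5:**
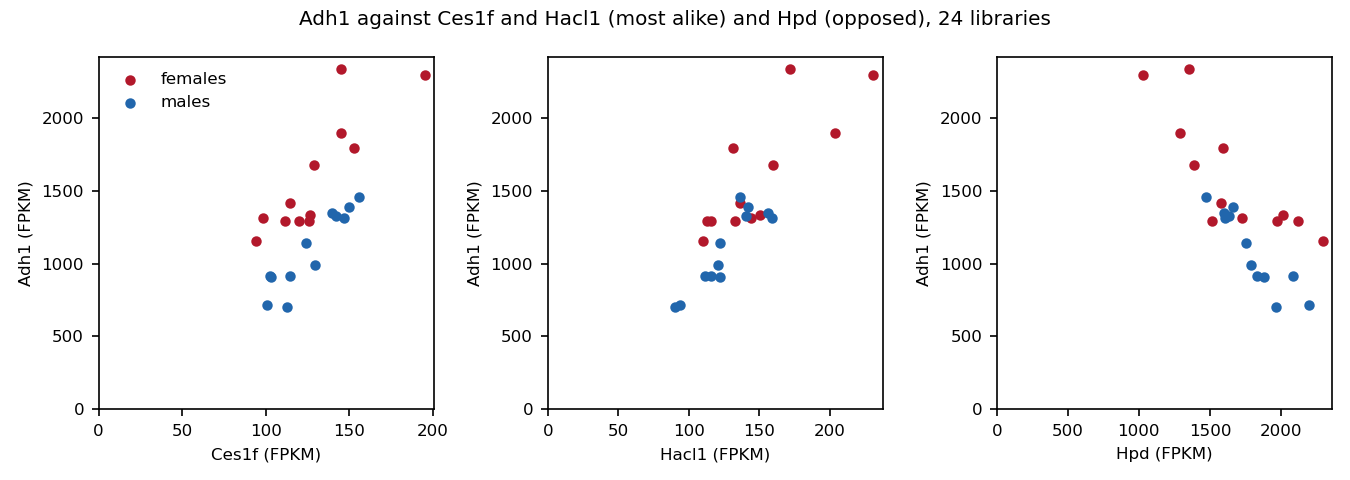
Adh1 (vertical axis, FPKM) against Ces1f, Hacl1 and Hpd (horizontal axes, FPKM), with 1 point per library, females in red and males in blue. Adh1 goes up with Ces1f (r = 0.869) and Hacl1 (r = 0.86) and down with Hpd (r = -0.823) within each sex.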

How the data were processed

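Whole-liver RNA was sequenced from 24 mice, 3 in each of 8 groups set by sex and vectors in the labels. The submitters' processing notes name HISAT, Bowtie2 and build GRCm38.p6, with no versions. The authors deposited FPKM values per gene and library, per the file headers. The smallest value above 0 is 0.01, a rounding step, so read counts cannot be worked back and the depth is unknown. No 2 libraries were identical.

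FPKM values were tested with limma 3.58.1 in R 4.3.3 on log2(FPKM + 0.5), with 8 group means, intensity trend, robust moderation and Benjamini-Hochberg adjustment over 2299 of 2372 genes. The script was tested on simulated data. The labels do not say how mice were housed or processed, so p-values measure the spread between these samples. Ratios within a library were compared by permutation with 100000 resamples (scipy 1.17.1), a test added after the data were seen. Alternatives were other pseudocounts, filters, scalings, weighted libraries, smaller fits holding only the compared groups, and leaving out each library. The enzymes and gene lists were chosen with earlier results of these data known. Named genes are the 4 enzymes, up to 4 genes of each list per comparison by smallest adjusted p, and for likeness the 5 highest and 3 lowest r.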

Additional observations from a re-analysis of the deposited data

How the results depend on the processing

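No paired analysis was possible because replicate numbers were given in accession order and pair no mice. The higher Adh1 and lower Cyp2e1, Cat and Aldh1a1 of females kept their direction under every alternative, and their call in 59 of 60 values, the exception being Cyp2e1 with control vectors fitted on the compared groups alone (-0.53). Without 1 library their 120 values all kept direction and call. In the vector comparisons of the 4 enzymes, 305 values kept direction and side of the threshold, 13 changed sign and 2 passed under other settings, and 286, 48 and 2 did so without 1 library. The 2 that passed were Adh1 in females with library weights, at -0.68 for the Kdm5 vectors and -0.67 for both. Other sign changes were of values near 0. With library weights Aldh1a1 was at -0.048 (Kdm5, females), -0.0058 (AhR, females), 0.016 (AhR, males), -0.044 (both, males) and -0.022 (sex difference of the AhR effect), Cat at -0.0017 (Kdm5, females), Cyp2e1 at 0.024 (sex difference of the Kdm5 effect) and Adh1 at -0.063 (both, males). With size factors Aldh1a1 was at -0.0050 (both, males) and 0.016 (interaction, males), and Cat at 0.0060 (sex difference of the Kdm5 effect). Without the Mup genes in the sum Aldh1a1 was at 0.024 (both, females) and -0.022 (both, males), and Slc25a13 at 0.017 between the sexes. Leaving out each library in turn gave Adh1 differences of -0.74 to -0.33 for the Kdm5 vectors in females, -0.55 to -0.11 for the Kdm5 vectors in males, -0.53 to -0.11 for the AhR vector in females, 0.19 to 0.63 for the AhR vector in males, -0.79 to -0.38 for both vectors in females, -0.21 to 0.23 for both vectors in males, -0.45 to 0.077 for the sex difference of the Kdm5 effect, -0.98 to -0.46 for the sex difference of the AhR effect, 0.059 to 0.48 for the vector interaction in females and -0.29 to 0.15 for the vector interaction in males. Leaving out each library in turn gave Aldh1a1 differences of -0.16 to 0.22 for the Kdm5 vectors in females, -0.080 to 0.27 for the Kdm5 vectors in males, -0.010 to 0.22 for the AhR vector in females, -0.20 to 0.16 for the AhR vector in males, -0.13 to 0.014 for both vectors in females, -0.17 to 0.19 for both vectors in males, -0.26 to 0.13 for the sex difference of the Kdm5 effect, -0.057 to 0.30 for the sex difference of the AhR effect and -0.25 to 0.11 for the vector interaction in males. Leaving out each library in turn gave Cyp2e1 differences of -0.25 to 0.057 for the Kdm5 vectors in females, -0.10 to 0.21 for the AhR vector in females, -0.11 to 0.20 for both vectors in females, -0.20 to 0.11 for the sex difference of the Kdm5 effect, -0.0014 to 0.31 for the sex difference of the AhR effect, -0.068 to 0.24 for the vector interaction in females and -0.031 to 0.091 for the vector interaction in males. Leaving out each library in turn gave Cat differences of -0.011 to 0.11 for the Kdm5 vectors in females, -0.0023 to 0.15 for the Kdm5 vectors in males, -0.0078 to 0.086 for the AhR vector in females, -0.11 to 0.035 for the AhR vector in males, -0.029 to 0.064 for both vectors in females, -0.14 to 0.014 for both vectors in males and -0.11 to 0.044 for the sex difference of the Kdm5 effect.

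Counts of genes past the threshold moved more. For the AhR vector in females, 5 as reported, they were 8 at pseudocount 1, 3 at a mean of 5 FPKM or more, 9 with either scaling, and 1 with the compared groups alone. A mean of 5 FPKM or more, which tests fewer genes, gave 33 for both vectors in males, 617 and 886 for sex with control and with all vectors, and 25 for the sex difference of the Kdm5 effect. The sum without Mup genes gave 7 for the sex difference of the AhR effect. Library weights gave 331 and 594 for the Kdm5 vectors and both in females, 66, 59 and 113 for the Kdm5, AhR and both vectors in males, 145 and 23 for the sex differences of the Kdm5 and AhR effects, and 97 for the interaction in males. The compared groups alone, with fewer samples, gave 1 and 21 for the Kdm5 vectors and both in females, 18, 10 and 31 for the Kdm5, AhR and both vectors in males, 15 and 6 for the sex differences of the Kdm5 and AhR effects, and 1 and 13 for the interactions in females and males. Leaving out each library gave 23 to 279 for the Kdm5 vectors in females, 0 to 14 for the Kdm5 vectors in males, 3 to 12 for the AhR vector in females, 9 to 26 for the AhR vector in males, 44 to 238 for both vectors in females, 16 to 42 for both vectors in males, 1 to 67 for the sex difference of the Kdm5 effect, 4 to 19 for the sex difference of the AhR effect, 1 to 23 for the vector interaction in females and 5 to 44 for the vector interaction in males. The count of 0 was limma's without the first male with Kdm5 vectors, where 194 genes had an unadjusted p under 0.05. For the Kdm5 vectors and for both vectors in females the lowest count came without the first control female. Depth is unknown, and 3 mice a group limit the vector comparisons: the standard error of the Adh1 difference was 0.23. The cause of these shifts was not tested.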
